A study of Rattus norvegicus with 6 samples.

Results

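The miRNAs miR-23, miR-24, and miR-27 are made from a pair of paralogous gene clusters, and both arms of all 6 precursors were looked up by name in the table of miRNA read counts. Of the 910 names in the table, 11 matched. The 23a/27a/24-2 cluster gives 5 of these names (rno-miR-23a-5p, rno-miR-23a-3p, rno-miR-27a-5p, rno-miR-27a-3p, and rno-miR-24-2-5p), the 23b/27b/24-1 cluster gives another 5, and rno-miR-24-3p is made by both. The samples were small RNA libraries of lens capsules (in the methods, the capsular membrane of the lens) from Sprague Dawley rat pups. The control group (n = 3 rats) was given saline, and the Na2SeO3 group (n = 3 rats) was given sodium selenite at 20 μmol/kg, a treatment known to cloud the lens. Both were injected under the skin of the nape on days 3, 5, and 7, and the lenses were taken on day 15 of the experiment. The methods give an age of 8 days for the pups used to set up the model, and no age when the lenses were taken. Neither group carried a transgene or a targeted allele, so there is no targeted gene to check, and selenite given under the skin reaches the whole animal and not the lens alone.

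Each precursor is cut into a duplex of a 5p arm and a 3p arm. One strand is usually loaded into an Argonaute protein as the guide, and the other, the passenger strand, is mostly degraded. The guide pairs with target mRNAs chiefly through its seed, bases 2 to 8 from the 5′ end. In these clusters the 3p arms are the usual guides. The clusters are conserved in vertebrates and are best known from vessel walls, where miR-23 and miR-27 act in angiogenesis, and from fat and immune cells. miR-27 lowers the adipogenic receptor gene Pparg, and miR-24 is known to act on cell cycle and apoptosis genes.

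The mature sequences show which members can be told apart by a read. RefSeq (assembly GRCr8) gave a sequence for 10 of the 11 names, and rno-miR-23a-5p was without an entry in the table used. The 3p arms are shown first, with the seed in capitals.
rno-miR-23a-3p: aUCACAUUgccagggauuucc
rno-miR-23b-3p: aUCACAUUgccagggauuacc
rno-miR-27a-3p: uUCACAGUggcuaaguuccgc
rno-miR-27b-3p: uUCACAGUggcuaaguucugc
rno-miR-24-3p: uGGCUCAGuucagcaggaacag

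Counted from 1 at the 5′ end, with the base of the 23a/27a/24-2 cluster first, the 23a-3p and 23b-3p arms differ by U19A alone and the 27a-3p and 27b-3p arms by C19U alone. Each pair shares its seed and its first 18 bases. A read that ends before base 19 cannot be assigned to a paralogue, and how the authors' counting divided such reads is not given in the sources used here, so each split between paralogues below is uncertain to that extent. The 5p arms are more distinct.
rno-miR-24-2-5p: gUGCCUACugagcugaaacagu
rno-miR-24-1-5p: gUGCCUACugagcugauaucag
rno-miR-27a-5p: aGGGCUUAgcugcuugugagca
rno-miR-27b-5p: aGAGCUUAgcugauuggugaacag
rno-miR-23b-5p: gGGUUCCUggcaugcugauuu

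The 24-2-5p and 24-1-5p arms share their seed and 16 leading bases and differ at 5 of the positions after them. The 27a-5p and 27b-5p arms differ at 8 positions, of which G3A lies in the seed. The 10 sequences held 7 different seeds, and none of the 683 other rat mature miRNAs in the RefSeq table had any of the 7.

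The precursors place these arms. In GRCr8 the 23a/27a/24-2 cluster covers 389 bases on the minus strand of chr19:40859455-40859843, outside any other annotated gene and between the protein-coding genes Zswim4 and Nanos3. The 23b/27b/24-1 cluster covers 814 bases on the minus strand of chr17:1818669-1819482, overlapping the annotated genes Fancc and Aopep. The counts were matched to these genes by name only, as no build is given for them in the sources used here. The hairpins are printed in the order of transcription, with the annotated mature arms in capitals.
Mir23a: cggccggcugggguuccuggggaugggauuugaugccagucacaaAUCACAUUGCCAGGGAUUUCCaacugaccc
Mir27a: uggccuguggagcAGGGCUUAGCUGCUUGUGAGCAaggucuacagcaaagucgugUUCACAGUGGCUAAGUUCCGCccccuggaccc
Mir24-2: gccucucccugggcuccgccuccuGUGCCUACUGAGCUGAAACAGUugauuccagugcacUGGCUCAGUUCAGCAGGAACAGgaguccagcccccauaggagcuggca
Mir23b: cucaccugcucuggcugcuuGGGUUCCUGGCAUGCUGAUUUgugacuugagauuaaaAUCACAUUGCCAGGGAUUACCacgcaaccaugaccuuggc
Mir27b: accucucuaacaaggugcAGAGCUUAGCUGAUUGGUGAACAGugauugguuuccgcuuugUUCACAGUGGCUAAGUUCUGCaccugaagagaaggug
Mir24-1: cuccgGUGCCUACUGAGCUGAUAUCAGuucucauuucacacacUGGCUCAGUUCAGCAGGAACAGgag

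The paralogous hairpins are less alike than their guide arms. Over a global alignment, identical bases made up 66.0% of the columns for Mir23a and Mir23b, 60.4% for Mir27a and Mir27b, and 54.1% for Mir24-2 and Mir24-1. Gaps counted as columns, so unequal annotated lengths lower these values. The lengths were 75 and 97, 87 and 97, and 108 and 68 bases, and the identical bases numbered 66, 64, and 60.

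The control libraries held 1806596 to 2829903 counts and the Na2SeO3 libraries 663096 to 968151, so depth differed between the groups without overlap. A name had to make up at most 1.66 CPM (the count scaled to a common library total) in a control library, and at most 4.52 CPM in a Na2SeO3 library, to reach 3 counts. Such limits cover counting error alone, since PCR copies cannot be told from separate molecules here. CPM below are scaled with TMM, which sets libraries against each other so that most miRNAs do not differ. miRNAs known from lens and surface epithelium (such as rno-miR-184 and rno-miR-204-5p, 7 of 7 tested) summed to 238644 to 299273 CPM in the control libraries and 235864 to 253243 CPM in the Na2SeO3 libraries, with 3 of the 7 lower by the adjusted p (13.8% of all 341 miRNAs tested were). The 3 were rno-miR-184 (log2 fold change -1.13), rno-miR-203a-3p (-1.21), and rno-miR-205 (-0.93). Much of the sum came from rno-miR-182, rno-miR-183-5p, and rno-miR-96-5p, with control means of 90065, 37042, and 44379 CPM. Their log2 fold changes were 0.21, 0.21, and -0.02, and that of rno-miR-204-5p was -0.40. Muscle miRNAs (such as rno-miR-1-3p and rno-miR-206-3p, 5 of 6 tested) summed to 7252 to 8799 and to 13486 to 14595 CPM, with 4 of the 5 higher by the adjusted p (20.8% of all miRNAs tested were). For the other, rno-miR-499-5p, every Na2SeO3 library lay below every control library (log2 fold change -0.49), and it missed the threshold (adjusted p = 0.0680, edgeR). Neuron and retina names (4 of 5 tested) summed to 30092 to 37494 and to 36896 to 46742 CPM, with 1 higher. Glial names (2 of 3 tested) summed to 26.9 to 33.0 and to 85.8 to 94.4 CPM, and miR-219a-5p had 0 or 1 count in every library. The glial sum rose through rno-miR-219a-2-3p alone, from 4.13 ± 2.29 to 78.4 ± 6.57 CPM (SD, n = 3 per group), while rno-miR-338-3p stood at 24.95 ± 4.51 and 12.4 ± 6.70 CPM without overlap and did not pass (log2 fold change -0.93, adjusted p = 0.0519, edgeR). Red cell names (2 of 4 tested) stood at 123 to 146 and 121 to 173 CPM, and leukocyte names (4 of 4 tested) at 136 to 171 and 103 to 159 CPM. The red cell list held miR-486 under its 5p name, whereas the table names it rno-miR-486 without an arm, so it was outside that sum. rno-miR-486, known from red cells and muscle, rose from 137.3 ± 20.8 to 299.8 ± 86.6 CPM (SD, n = 3 per group) and passed both thresholds (log2 fold change 1.12, adjusted p = 0.00148, edgeR). It was looked up after values were seen. The part of these cell types in the results below was not tested, and in a bulk sample fewer cells of a type and less RNA per cell cannot be told apart.

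The 11 names together took about the same share of each library. Of all counts, they took 1.04%, 0.887%, and 0.829% in the 3 control libraries, in the order of their numbers, and 0.991%, 0.925%, and 0.958% in the 3 treated ones. Group means were 0.918% ± 0.107 and 0.958% ± 0.033 (SD, n = 3 per group), and the groups overlapped (two-sided exact permutation test, p = 0.6, where 3 libraries against 3 cannot go below 0.1). Within the members, rno-miR-27b-3p held 36.4% to 39.3% of the counts in the control libraries and 35.5% to 46.5% in the Na2SeO3 libraries, and rno-miR-24-3p held 23.4% to 26.5% and 23.98% to 28.3%.

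The levels fell into a fixed order. In each of the 6 libraries rno-miR-27b-3p was the most abundant member, followed by rno-miR-24-3p, rno-miR-27a-3p, rno-miR-23b-3p, rno-miR-23a-3p, and rno-miR-24-2-5p. For these 6 no neighbours overlapped in CPM within a group. A read counts once whatever the length of the arm (21 to 24 bases), so these levels need no division by length. How evenly the different arms were captured was not tested, so the order is one of reads. Next came rno-miR-27a-5p and rno-miR-24-1-5p, which changed places in Na2SeO3 library 3 and overlapped within that group. rno-miR-27b-5p had 5 to 21 counts per library, with group means of 7.72 ± 2.89 CPM for control and 6.56 ± 1.88 CPM for Na2SeO3 (SD, n = 3 per group). rno-miR-23b-5p had 0 to 5 counts and rno-miR-23a-5p had 1 count, in control library 1, so no fold is given for them. These last 3 names had too few reads for the filter and were not tested.

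**Figure D1:**
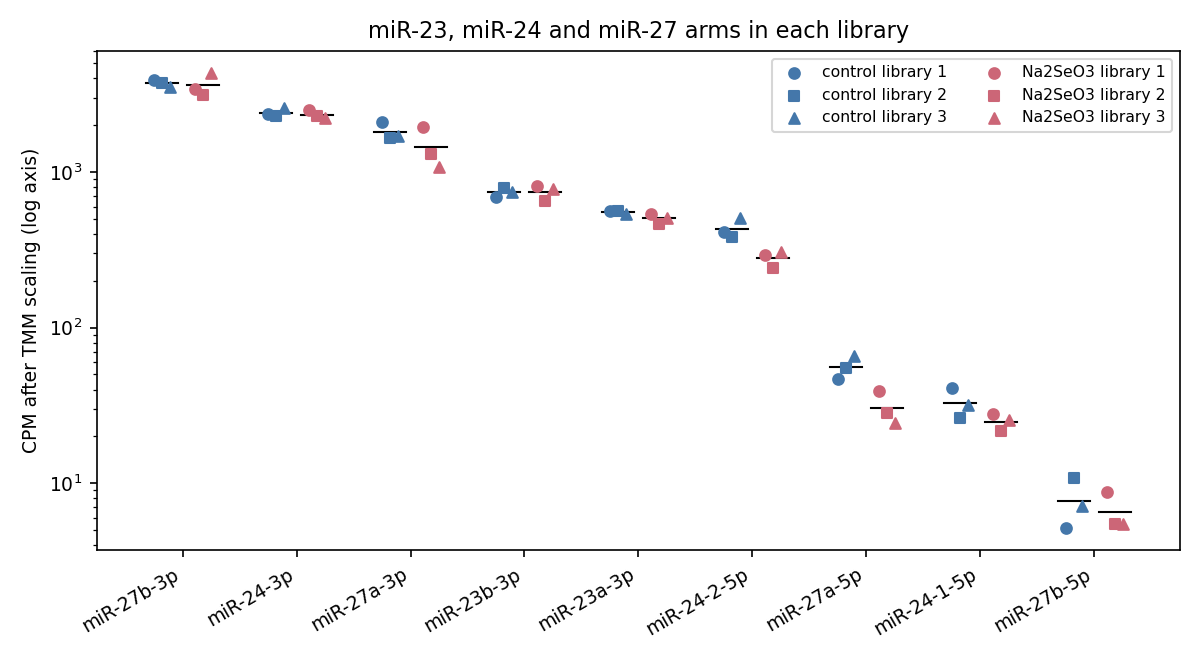
CPM after TMM scaling (log axis) of 9 members in the 3 control libraries (blue) and the 3 Na2SeO3 libraries (red), with circles, squares, and triangles for libraries 1, 2, and 3 and a bar at the group mean. The 5 most abundant members, all 3p arms, sit at like heights in both groups, while every Na2SeO3 point of miR-24-2-5p and miR-27a-5p, and by a small step of miR-23a-3p, lies below every control point.

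Of the 341 miRNAs tested, 8 were members. None of the 8 passed both thresholds of the study, an adjusted p of 0.05 and a log2 fold change of 1 in either direction, against 16.4% of all miRNAs tested (39 higher and 17 lower, or 53 and 10 with library size only and 32 and 22 with upper-quartile scaling). Without adjustment the number was also 0, since no member reached the fold threshold, and DESeq2 gave 0. By the adjusted p-value alone, rno-miR-24-2-5p and rno-miR-27a-5p were lower in the Na2SeO3 group, 2 of 8 against a background of 13.8% of all miRNAs tested, and no member was higher, against 20.8%. The groups did not overlap in 3 of the 8, lower in the Na2SeO3 group each time, as in 21.1% of all miRNAs tested. The median log2 fold change of the 8 was -0.23 and that of all 341 was 0.08, with 7 of the 8 below 0 beside 154 of the 341, or 4 of 8 with library size only as the scale, which moved the median of all miRNAs to 0.27.

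The 3p arms, the usual guides, differed between the groups by less than the test could call. rno-miR-27b-3p, the most abundant, stood at 3908, 3745, and 3525 CPM in control libraries 1 to 3 and at 3391, 3105, and 4300 CPM in Na2SeO3 libraries 1 to 3. The groups overlapped, with the highest and the lowest value both in the Na2SeO3 group. Its log2 fold change was -0.05 (95% interval -0.40 to 0.29, adjusted p = 0.844, edgeR's quasi-likelihood test).

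rno-miR-24-3p, the arm with the same sequence in both clusters, stood at 2367, 2297, and 2572 CPM in the control libraries and at 2502, 2305, and 2218 CPM in the Na2SeO3 libraries. The ranges overlapped over most of their length. The log2 fold change was -0.04 (95% interval -0.36 to 0.27, adjusted p = 0.847, edgeR).

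The values of rno-miR-27a-3p were 2095, 1651, and 1707 CPM in the control libraries and 1956, 1303, and 1082 CPM in the Na2SeO3 libraries. Libraries 2 and 3 of the Na2SeO3 group lay below all controls and library 1 lay among them. Group means were 1818 ± 242 and 1447 ± 454 CPM (SD, n = 3 per group), and the log2 fold change was -0.33 (95% interval -0.78 to 0.12, adjusted p = 0.254, edgeR). Without Na2SeO3 library 1 it was -0.64 and passed (adjusted p = 0.0160), and without Na2SeO3 library 3 it was -0.16 (adjusted p = 0.682).

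The miR-23 guides were the least abundant of the 3p arms. rno-miR-23a-3p stood at 559, 561, and 536 CPM in the control libraries and at 534, 467, and 508 CPM in the Na2SeO3 libraries. Every Na2SeO3 value lay below every control value by a narrow margin, and the log2 fold change of -0.14 did not pass (95% interval -0.46 to 0.19, adjusted p = 0.526, edgeR). With library size only it was 0.05. rno-miR-23b-3p stood at 695, 795, and 742 CPM and at 813, 652, and 780 CPM, with overlap and a log2 fold change of 0.01 (95% interval -0.33 to 0.35, adjusted p = 0.972, edgeR). The interval of each 3p arm therefore left out a doubling and a halving, though not a smaller change.

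The 5p arms, the usual passengers, had lower means in the Na2SeO3 group, and the difference passed the adjusted p in 2 of the 3 tested. These are 2 of the 8 members tested, beside 13.8% of all miRNAs tested that were lower by the adjusted p. Without control library 3 neither passed. rno-miR-24-2-5p was counted 1194, 736, and 781 times in the control libraries and 200, 268, and 279 times in the Na2SeO3 libraries. Scaled, these were 412, 381, and 505 CPM against 291, 243, and 307 CPM. The highest Na2SeO3 library lay below the lowest control library. Group means were 433 ± 64.8 and 280.5 ± 33.1 CPM (SD, n = 3 per group), and the log2 fold change was -0.63 (standard error 0.17, 95% interval -0.998 to -0.26, adjusted p = 0.0126, edgeR's quasi-likelihood test). Without control library 3, its highest, the log2 fold change was -0.50 and did not pass (adjusted p = 0.0647).

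rno-miR-27a-5p was counted 136, 106, and 101 times in the control libraries and 27, 31, and 22 times in the Na2SeO3 libraries. Scaled, the values were 47.0, 54.8, and 65.4 CPM against 39.3, 28.1, and 24.2 CPM, again without overlap. Group means were 55.7 ± 9.22 and 30.6 ± 7.84 CPM (SD, n = 3 per group), and the log2 fold change was -0.88 (standard error 0.25, 95% interval -1.41 to -0.35, adjusted p = 0.0137, edgeR). This fall rests on few reads, and it did not pass without control library 2 (log2 fold change -0.88, adjusted p = 0.0596), control library 3 (-0.75, adjusted p = 0.0752), or Na2SeO3 library 3 (-0.74, adjusted p = 0.0621), while its size stayed near that with all libraries. Without Na2SeO3 library 1 it passed both thresholds, at -1.10 (adjusted p = 0.00445).

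rno-miR-24-1-5p, which differs from rno-miR-24-2-5p only in its last bases, was counted 118, 51, and 49 times and 19, 24, and 23 times. The scaled values were 40.8, 26.4, and 31.7 CPM in the control libraries and 27.7, 21.8, and 25.3 CPM in the Na2SeO3 libraries. The ranges overlapped through control library 2 and Na2SeO3 library 1, and the log2 fold change of -0.42 did not pass (95% interval -0.98 to 0.13, adjusted p = 0.236, edgeR). Without control library 1, its highest, it was -0.23 (adjusted p = 0.627).

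**Figure D2:**
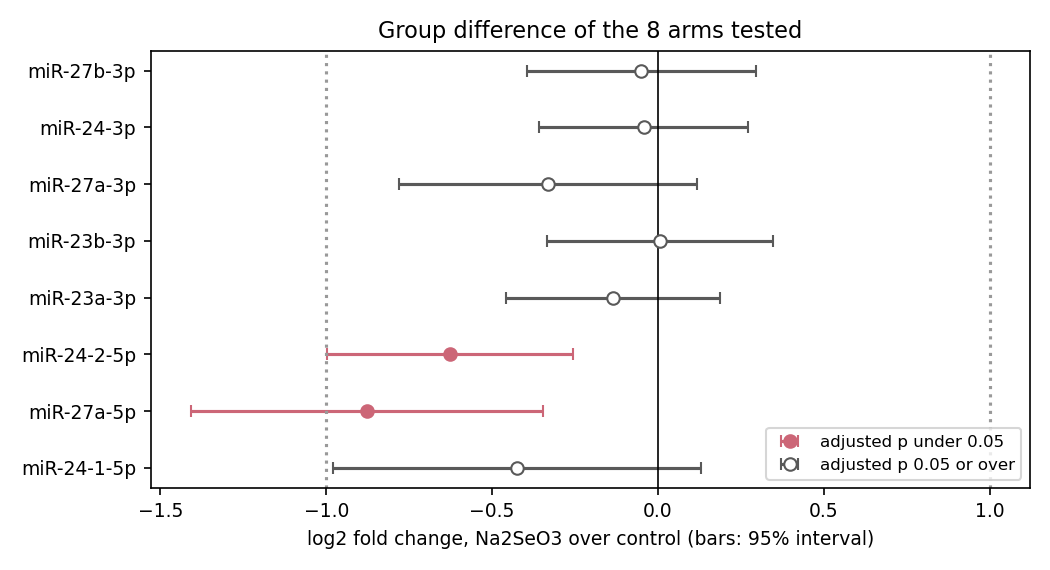
Log2 fold change, Na2SeO3 over control, of the 8 members tested, with 95% intervals from edgeR's quasi-likelihood test (filled red, adjusted p under 0.05) and dotted lines at an absolute log2 fold change of 1. Only miR-24-2-5p (-0.63) and miR-27a-5p (-0.88) have intervals that leave out 0.

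A ratio of reads within a library does not depend on the scaling between libraries, so the clusters and the arms were also compared as ratios. The measure is log2 of the ratio with 0.5 added to each count (which for arms with few reads makes it depend on depth), with a two-sided exact permutation test of 3 libraries against 3, which cannot go below 0.1, so its p describes the order of the libraries and cannot call a difference. Of the ratios, 8 were tested, and the smallest adjusted p that was found over the 8 was 0.4. Ratios with miR-23a-5p or miR-23b-5p were left out because these arms had hardly any reads.

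The 23a/27a/24-2 cluster gave fewer reads than the 23b/27b/24-1 cluster in every library, with rno-miR-24-3p left out because both make it. Its share of the reads of both was 40.1%, 36.6%, and 39.5% in the control libraries and 39.9%, 35.0%, and 27.3% in the Na2SeO3 libraries. The ratio of the clusters was lower in the Na2SeO3 group by 0.30 on the log2 scale, and the groups overlapped (exact permutation test, p = 0.3, n = 3 per group; p = 0.48 adjusted over the 8 ratios). Without Na2SeO3 library 3 the difference was -0.08, and without Na2SeO3 library 1 it was -0.49.

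The same library carried the difference between the miR-27 guides. Reads of rno-miR-27a-3p per read of rno-miR-27b-3p were 0.536, 0.441, and 0.484 in the control libraries and 0.577, 0.420, and 0.252 in the Na2SeO3 libraries. Na2SeO3 library 3 was the lowest of all and library 1 the highest. The groups differed by -0.30 on the log2 scale (exact permutation test, p = 0.6, n = 3 per group), by 0.02 without Na2SeO3 library 3, and by -0.58 without Na2SeO3 library 1.

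Reads of rno-miR-23a-3p per read of rno-miR-23b-3p were 0.804, 0.706, and 0.723 in the control libraries and 0.658, 0.716, and 0.652 in the Na2SeO3 libraries. The ranges overlapped through control library 2 and Na2SeO3 library 2. The difference was -0.14 on the log2 scale (exact permutation test, p = 0.2, n = 3 per group), or -0.08 without control library 1.

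Among the passengers the clusters were far from even. There were 10.1, 14.4, and 15.9 reads of rno-miR-24-2-5p per read of rno-miR-24-1-5p in the control libraries, and 10.5, 11.2, and 12.1 in the Na2SeO3 libraries (log2 difference -0.25, exact permutation test, p = 0.4, n = 3 per group). Leaving out libraries moved it, to -0.45 without control library 1 and to -0.12 without control library 3. Thus the 23a/27a/24-2 cluster, with fewer reads at miR-23 and miR-27, had more reads of its miR-24 passenger in each of the 6 libraries. rno-miR-27a-5p had 9.07, 5.05, and 9.18 reads per read of rno-miR-27b-5p in the control libraries and 4.5, 5.17, and 4.4 in the Na2SeO3 libraries. On the ratio with 0.5 added the groups stood apart, by -0.73 on the log2 scale (exact permutation test, p = 0.1, the smallest possible, n = 3 per group), although on the raw ratio control library 2 lay just below Na2SeO3 library 2, and rno-miR-27b-5p rests on as few as 5 reads.

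Passenger reads were few beside guide reads, and most were of rno-miR-24-2-5p. All 5p arms together held 5.01%, 4.98%, and 6.29% of the member counts in the control libraries and 3.85%, 3.68%, and 3.91% in the Na2SeO3 libraries. No Na2SeO3 library reached the lowest control library (means 5.42% ± 0.750 and 3.82% ± 0.118, SD, n = 3 per group). This sum was added after the values of the arms were seen and largely restates rno-miR-24-2-5p, so no test is given for it.

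By precursor, the arm ratio of miR-24 stood apart. Both 5p arms of miR-24 came to 19.1, 17.7, and 20.9 reads per 100 reads of rno-miR-24-3p in the control libraries and to 12.7, 11.5, and 14.97 in the Na2SeO3 libraries. The lowest control value lay above the highest Na2SeO3 value. The difference was -0.56 on the log2 scale, a ratio of 0.677 between the groups (exact permutation test, p = 0.1, the smallest possible, n = 3 per group; p = 0.4 adjusted over the 8 ratios), and it ran from -0.66 to -0.47 with each library left out. The 24-2-5p arm alone gave 17.4, 16.6, and 19.6 against 11.6, 10.6, and 13.8 reads per 100, a difference of -0.58, and the rarer 24-1-5p arm alone gave -0.32, with groups that overlapped once 0.5 was added to the counts and just missed each other on the raw ratio. These separate ratios were added after the values were seen, and since both clusters feed rno-miR-24-3p, neither is the arm ratio of a single precursor.

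For miR-27a the 5p arm came to 2.24, 3.32, and 3.83 reads per 100 reads of the 3p arm in the control libraries and to 2.01, 2.16, and 2.24 in the Na2SeO3 libraries. Control library 1 lay level with the highest Na2SeO3 library, so that the groups just missed each other on the raw ratio and overlapped once 0.5 was added, with a difference of -0.50 on the log2 scale (exact permutation test, p = 0.2, n = 3 per group). For miR-27b the ratio was 0.133, 0.290, and 0.202 reads per 100 against 0.258, 0.175, and 0.128, with full overlap (log2 difference -0.07, exact permutation test, p = 0.8, n = 3 per group).

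**Figure D3:**
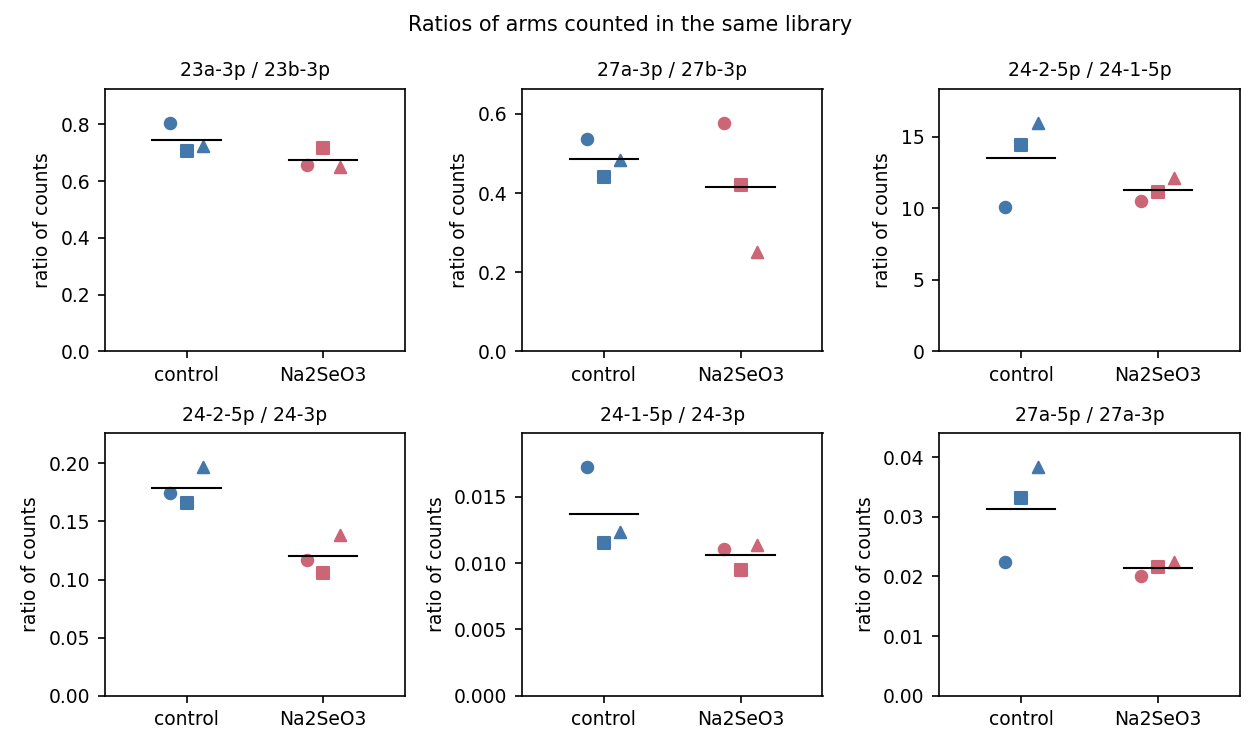
Ratios of read counts within each of the 3 control (blue) and 3 Na2SeO3 (red) libraries, with circles, squares, and triangles for libraries 1, 2, and 3, a bar at the group mean, and axes that start at 0. In the 24-2-5p to 24-3p panel the lowest control library (0.166) lies well above the highest Na2SeO3 library (0.138), and the 27a-3p to 27b-3p ratio is spread most by Na2SeO3 library 3, at 0.252.

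Set beside other rat precursors, the member ratios lay on the low side without standing alone. The less abundant arm was divided by the more abundant arm for each of 75 precursor names with both arms tested, a comparison added after the values were seen, with miR-24-1, miR-24-2, and miR-27a among them. Both miR-24 names were divided by the same arm, rno-miR-24-3p, so they are not separate precursor ratios. The log2 difference between the groups was -0.58, -0.50, and -0.32 for miR-24-2, miR-27a, and miR-24-1, which were the 12th, 16th, and 19th lowest of the 75. The other 72 had a median of -0.03 and ran from -1.31 to 1.20, and 37 of them (51.4%) were below 0. Of these 72, 6 (8.33%) had groups that stood apart with a lower ratio in the Na2SeO3 group, and 7 (9.72%) stood apart with a higher one. The less abundant arm was lower by the adjusted p while the more abundant arm did not pass in 2 of the 3 member pairs and in 2 of the 72 others, which is a count of calls and not a test of the difference between arms.

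**Figure D4:**
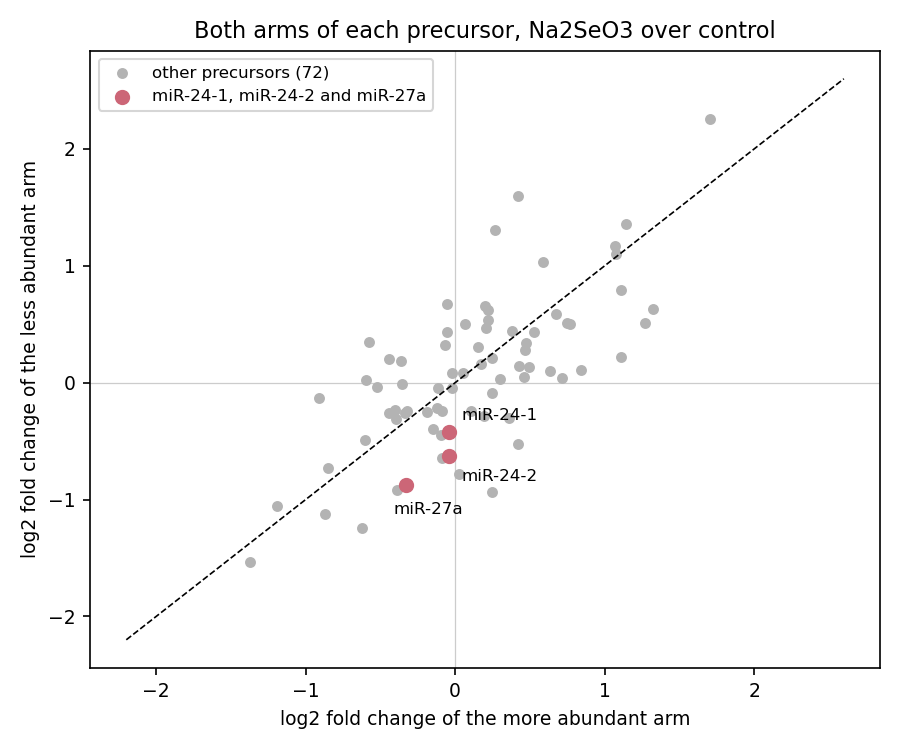
Log2 fold change (Na2SeO3 over control) of the less abundant arm against that of the more abundant arm of 75 rat precursor names, with the 72 others in grey and a dashed line where both arms changed alike. miR-24-1, miR-24-2, and miR-27a (red) lie below the line, just left of 0, among other grey points that lie as far below it.

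Other miRNAs known from vessel walls give a frame for the members in this tissue. Of 12 such names, all tested, none passed both thresholds, 5 were lower by the adjusted p alone (background 13.8%), and none was higher (background 20.8%). The median log2 fold change of the 12 was -0.25 (-0.04 with library size only), against 0.08 for all miRNAs tested. The 5 were rno-miR-143-3p (log2 fold change -0.60, adjusted p = 0.00603), rno-miR-145-5p (-0.85, adjusted p = 0.00153), rno-miR-145-3p (-0.73, adjusted p = 0.0101), rno-miR-221-3p (-0.60, adjusted p = 0.0229), and rno-miR-222-3p (-0.81, adjusted p = 0.00827, all by edgeR). The first 3 come from the smooth muscle cluster of miR-143 and miR-145, whose remaining arm, rno-miR-143-5p, had a log2 fold change of 0.02 (adjusted p = 0.935). Of the others that did not pass, rno-miR-199a-3p was at 0.10 and rno-miR-214-3p at 0.16, and rno-miR-199a-5p and rno-miR-218a-5p were at -0.24 and -0.25. The endothelial miRNA rno-miR-126a-3p, with means of 22832 ± 2777 CPM for control and 27037 ± 2890 CPM for Na2SeO3 (SD, n = 3 per group), did not pass (log2 fold change 0.24, adjusted p = 0.216, edgeR), and neither did rno-miR-126a-5p (0.21, adjusted p = 0.479).

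The names whose levels over the 6 libraries were most like those of the 3p members were mmu-miR-744-5p, a mouse name, rno-miR-149-5p, rno-miR-320-3p, and rno-miR-125b-2-3p. Likeness was the root mean square difference between a name's deviations of log2 CPM from its own mean and the mean deviations of the 5 members, and it was 0.083, 0.084, 0.090, and 0.10 in that order. As an example of these levels, rno-miR-149-5p had means of 337 ± 9.62 CPM for control and 326 ± 5.78 CPM for Na2SeO3 (SD, n = 3 per group).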

How the data were processed

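Small RNA from the lens capsules of 6 rats was measured by single-end sequencing. The authors used Cutadapt and Fqtrim for trimming, FastQC for read quality, and miRDeep and HISAT2 against the Ensembl reference. They deposited unnormalized read counts per miRNA name. The genome build, tool versions, and counting rule are not given in the sources used here.

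Samples were grouped by the treatment in their labels. The methods give 3 animals per group, and p-values measure the spread between these 6 libraries. All pairs of libraries differed far beyond counting error (chi-square per degree of freedom at least 27.95). Names were filtered with filterByExpr (minimum count 10), which left 341, scaled with TMM, and tested with edgeR's quasi-likelihood test without covariates, with Benjamini-Hochberg adjustment over all 341. Each standard error was the absolute log2 fold change divided by the square root of F. R 4.3.3, edgeR 4.0.16, and DESeq2 1.42.0 were used. On counts simulated for this comparison, with changes larger than those of any member, the procedure was tested before use. The simulation does not cover changes of the size seen in the members. Sequences and gene positions came from RefSeq tables of GRCr8. Alternatives covered scaling, filters, rat names only, DESeq2, the replicate block, pseudocounts, and each library left out. The members and lists were chosen with earlier results of these data known. By the rule for names, every member was named, with the 4 names most like the 3p members, the vessel-wall names past both thresholds or set beside a member, and marker names given beside a result.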

Additional observations from a re-analysis of the deposited data

How the results depend on the processing

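Over the alternatives, 93 recomputed log2 fold changes of the members kept their direction and their side of the adjusted p of 0.05, 14 changed sign, 4 no longer passed, and 1 newly passed. rno-miR-23b-3p went to -0.050 with RLE scaling, -0.076 with upper-quartile scaling, -0.071 without a filter, -0.0047 with at least 10 counts in every library, -0.021 with rat names only, and -0.051 with DESeq2. With library size only, rno-miR-23a-3p, rno-miR-24-3p, and rno-miR-27b-3p were at 0.052, 0.15, and 0.13. On that scale rno-miR-23b-3p was at 0.20, rno-miR-27a-3p at -0.15, rno-miR-24-1-5p at -0.25, rno-miR-24-2-5p at -0.43, and rno-miR-27a-5p at -0.67. With each library left out, rno-miR-23b-3p ran from -0.083 to 0.10, rno-miR-24-3p from -0.12 to 0.0058, and rno-miR-27b-3p from -0.20 to 0.042. rno-miR-23a-3p ran from -0.21 (without Na2SeO3 library 1) to -0.085 (without Na2SeO3 library 2). The number of members past both thresholds ran from 0 to 1 (rno-miR-27a-5p without Na2SeO3 library 1), and the number lower by the adjusted p ran from 0 (without control library 3) to 3 (without Na2SeO3 library 1), with 1 without control library 2 and 1 without Na2SeO3 library 3. The adjusted p (edgeR or DESeq2) ran from 6.4e-04 to 0.0647 for rno-miR-24-2-5p and from 0.0042 to 0.0752 for rno-miR-27a-5p. The cause of these shifts was not tested, beyond the smaller number of libraries.

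Of the ratios, 27a-3p over 27b-3p ran from -0.58 to 0.019 with each library left out. The arm ratio of miR-27b was 0.11 with a pseudocount of 2 and ran from -0.36 to 0.20 with each library left out. The difference in the members' share of counts was -0.18 percentage points without the 10 most abundant other names, and ran from -0.0039 to 0.10 with each library left out. With the replicate block, 2 members again passed the adjusted p and none passed both thresholds, so it changed no call. Same-numbered libraries did not deviate together (correlations of -0.17, -0.18, and -0.26 across miRNAs), none of the 6 correlated best with its own number, and the labels do not say that the numbers pair animals. Exact tests of 3 against 3 cannot pass 0.05 at any size of effect. In the Na2SeO3 libraries rno-miR-27a-5p had 22 to 31 reads, rno-miR-24-1-5p 19 to 24, and rno-miR-27b-5p 5 to 6, so counting error is large for them.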

Other observations

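A name outside rat, mml-miR-23a-5p (a rhesus macaque name), had 6 counts in control library 1 and 0 in the other libraries, while rno-miR-23a-5p had 1 count in the same library. Mir3074 lies across Mir24-1 on the other strand in GRCr8, and rno-miR-3074 had 1 count in control library 3, 1 in Na2SeO3 library 1, and 0 in the rest.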
